A study of Mus musculus with 8 samples.

Results

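Ion channel and sodium pump genes were examined in hearts of neonatal connexin43 null mice and in hearts of wildtype neonatal mice, both C57BL. Membership followed the gene symbol: probes with a single symbol of the potassium (Kcn), sodium (Scn), calcium (Cacn), pacemaker (Hcn) or chloride (Clcn, Clic) channel families, of the Trpc, Trpm and Trpv cation channels, of the P2X receptors, of the IP3 receptors or of the sodium pump (Atp1a, Atp1b) were taken. The array annotation held 90 such probes for 61 genes among 28704 spots. Of these, 47 probes of 36 genes had a value on at least 3 arrays of each genotype, and these 36 genes, of 11804 features measured that well, are described here. There were 4 pools of null hearts and 4 pools of wildtype hearts, with 3 hearts per pool, and all pools were set against 1 mixture of adult male and female C57BL tissues that included heart and brain. Heart cDNA carried Cy3 and the mixture Cy5 on all 8 arrays. The labels give neither the age in days nor how the null allele was made.

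Ion channels set the electrical behaviour of a heart muscle cell. Sodium channels carry the upstroke of the action potential, calcium channels trigger contraction, and potassium channels bring the membrane back to rest. The sodium pump restores the ion gradients that the channels run down, and gap junctions built from connexin43 carry the current from cell to cell. Pore-forming subunits work with accessory subunits, which set how many channels reach the membrane and how fast they open and close.

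Values are log2 ratios of heart over the adult mixture, with the median of each array set to 0. A value of 1 means a ratio 2 times the array's median ratio, and it is a ratio to the mixture, not an amount of transcript. Heart was taken as the numerator because sarcomere genes lay above genes of other adult tissues on 8 of 8 arrays, with medians of 0.66 to 1.12 against -3.06 to -1.59. The dyes were not swapped, so dye bias stays in each ratio. A bias that is equal on all arrays cancels between genotypes, but one that varies among arrays would not, and this was not tested. In a whole heart, fewer cells of a type and less RNA per cell cannot be told apart.

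Arrays had a value at 17879 to 20212 spots in the null group and at 12971 to 23929 in the wildtype group. Wildtype replicate 1 had the fewest values, and its median rank correlation with other arrays was 0.58, against 0.66 to 0.79 for the rest. It had a value for 30 of the 36 genes, and each other array for 33 to 36. Gja1, which encodes connexin43, read -0.29, 0.25, 0.12 and 0.22 in null hearts and 1.04, 1.31, 0.99 and 0.79 in wildtype hearts. The groups did not overlap, and the exact two-sided permutation test gave p = 0.0286, the smallest p that 70 assignments allow. Groups without overlap, with null lower, were found for 5.54% of all 11804 features. In limma, fitted over all features, Gja1 had a log2 difference of -0.95 and an adjusted p of 0.340. That test thus did not call the connexin43 gene itself, so a gene it leaves uncalled cannot be taken as unchanged.

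The question put to the channel and pump genes was which of them differed in transcript level when connexin43 was absent. By limma 0 of the 36 genes had an adjusted p under 0.05, as did 0 of all 11804 features (0%, with 972 at an unadjusted p under 0.05). The lowest values relative to wildtype belonged to accessory subunits: Kcnip3, a calcium-binding partner of Kv4 potassium channels, was 1.79-fold lower and Cacng4, a gamma subunit of calcium channels, 1.39-fold lower. Kcne3, a small beta subunit of potassium channels, was 1.47-fold higher. At an unadjusted p under 0.05 there were 4 genes (11.1% of the 36), against 8.23% of all features. Of these, 1 was higher in null hearts, against 2.1% of all features, and 3 were lower, against 6.13%.

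Relative to wildtype, 10 of the 36 genes were higher and 26 lower in value, and the median log2 difference was -0.07. Over all features the median was -0.04 and 40.9% had higher values, against 27.8% of the 36 genes. Without centring of the arrays the split was 2 higher and 34 lower, and then the median of all features was -0.18. Once the dependence of the difference on the mean ratio was taken out by lowess, the split was 19 higher and 17 lower. The median standard error of a difference was 0.14 for the 36 genes, and differences ran from -0.84 to 0.56.

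**Figure D1:**
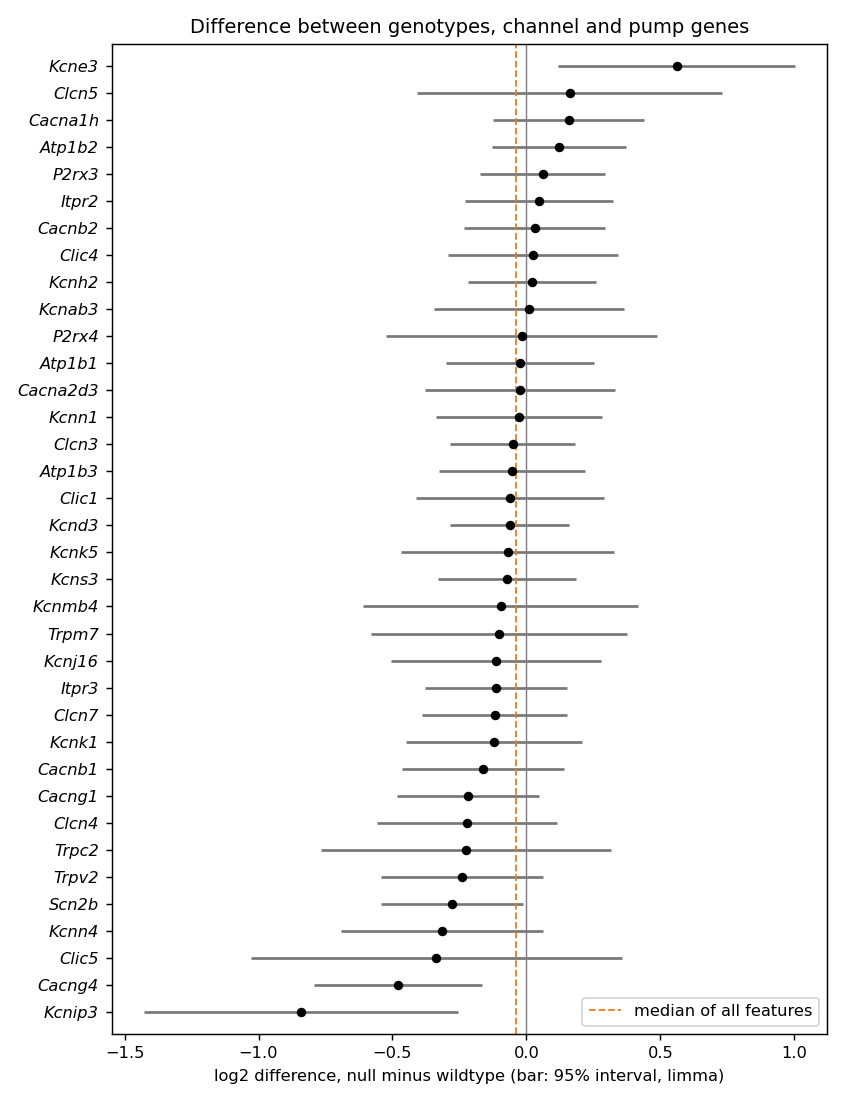
Log2 difference, null minus wildtype, of each of the 36 channel and pump genes (points) with its 95% interval from limma (bars), and the median of all 11804 features (dashed line). The intervals of Kcnip3, Cacng4 and Scn2b lie below 0 and that of Kcne3 above it, none of them adjusted for the number of tests.

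Among potassium channel genes, 12 of 24 on the array were measured, 3 with higher and 9 with lower values in null hearts. Kcnip3 encodes KChIP3, also known as calsenilin or DREAM, which binds Kv4 channels and can repress transcription in the nucleus. It read -1.19, -1.14, -1.97 and -0.79 in null hearts and 0.12, -0.29, -0.56 and -0.99 in wildtype hearts. The groups overlapped only in that null replicate 4 lay above wildtype replicate 4. Null pools averaged -1.27 ± 0.50 and wildtype pools -0.43 ± 0.47 (SD, n = 4 each), a log2 difference of -0.84 (SE 0.27, adjusted p = 0.553 in limma). The difference was -1.03 without wildtype replicate 4 and -0.61 without null replicate 3, which held the lowest value.

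Kcne3 was read by 1 probe on 3 arrays of each genotype. It was -0.71, -0.83 and -0.60 in null replicates 2 to 4 and -0.84, -1.38 and -1.61 in wildtype replicates 1 to 3. All null values lay above all wildtype values, but null replicate 3 and wildtype replicate 1 were nearly level. The log2 difference was 0.56 (SE 0.20, adjusted p = 0.558 in limma), and it was 0.78 without wildtype replicate 1 and 0.40 without wildtype replicate 3. Null pools averaged -0.72 ± 0.12 and wildtype pools -1.28 ± 0.39 (SD, n = 3 each), and the mean over both genotypes was the lowest of the 36 genes.

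Kcnd3 and Kcnh2 encode pore-forming subunits of repolarising currents of the heart, Kv4.3 of the transient outward current and ERG of the rapid delayed rectifier. Kcnd3 read 0.16, 0.27, 0.28 and 0.34 in null hearts and 0.22, 0.29, 0.43 and 0.36 in wildtype hearts. Kcnh2 read 0.13, 0.014, -0.16 and 0.14 in null hearts and -0.09, -0.023, 0.046 and 0.11 in wildtype hearts. The groups overlapped for both. The 95% interval of the log2 difference ran from -0.28 to 0.16 for Kcnd3 and from -0.22 to 0.26 for Kcnh2. Both intervals held 0, and differences in ratio anywhere within these bounds are compatible with the values. These are bounds on array ratios, and in null hearts Gja1 itself still read 51.6% of wildtype. How far the ratios follow differences in transcript was not tested. A second Kcnh2 probe, with too few wildtype values to be tested, read 0.60, 0.49, 0.28 and 0.83 in null hearts and 0.64 and 1.03 in wildtype replicates 2 and 4.

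Kcnn4, the intermediate-conductance calcium-activated potassium channel known from red cells and T cells, had a log2 difference of -0.32 (SE 0.17, adjusted p = 0.620 in limma). It read 0.26, -0.52, 0.09 and -0.22 in null hearts and 0.47, 0.02, 0.24 and 0.14 in wildtype hearts. Its 2 probes gave -0.43 and -0.03, and without 1 array its difference ranged from -0.52 to -0.03, in part through the loss of a probe to the limit on missing values. The small-conductance channel gene Kcnn1 had -0.03 (SE 0.14). The tandem-pore channel gene Kcnk1 (TWIK-1) had -0.12 (SE 0.15), and Kcnk5 (TASK-2), known from kidney, had -0.07 (SE 0.18). The inward rectifier subunit gene Kcnj16 (Kir5.1) had -0.11 (SE 0.18), the silent subunit gene Kcns3 (Kv9.3) -0.07 (SE 0.12), the beta subunit gene Kcnab3 0.01 (SE 0.16) and Kcnmb4, the brain-type beta subunit of BK channels, -0.10 (SE 0.23). Kcnmb4 read 0.40 on null replicate 1 and 0.39 on wildtype replicate 1, and between -0.52 and -0.09 on the other 6 arrays. This holds for 1 gene: over 8238 features the deviations of these 2 arrays from their group means correlated at -0.24.

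Scn2b, the beta2 subunit of voltage-gated sodium channels, was the only sodium channel gene measured. It read -0.34, -0.27, -0.40 and -0.31 in null hearts and 0.13, -0.088, 0.077 and -0.32 in wildtype hearts. Wildtype replicate 4 lay within the null range and the other wildtype arrays above it. The log2 difference was -0.28 (SE 0.12, adjusted p = 0.591 in limma), 1.21-fold lower in null hearts. The SD was 0.058 among null arrays and 0.20 among wildtype arrays.

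Calcium channel genes had 6 of 10 members measured, 2 with higher and 4 with lower values. Cacng4 read -0.61, -0.59 and -0.60 in null replicates 1, 2 and 4 and 0.11, -0.21 and -0.26 in wildtype replicates 2 to 4. The groups did not overlap, and the log2 difference was -0.48 (SE 0.14, adjusted p = 0.553 in limma), the smallest unadjusted p of the 36 genes. The gamma4 subunit is best known in brain, where it escorts AMPA receptors. Leaving out 1 of the 6 arrays gave differences from -0.55 to -0.37. Groups without overlap were found for 3 of the 36 genes (8.33%), against 7.54% of all features. Kcne3 was the gene higher in null hearts, against 2% of all features, and Cacng4 and Cacng1 were lower, against 5.54%.

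Cacng1, the gamma1 subunit of the skeletal muscle calcium channel, read -0.053, -0.38, -0.13 and -0.26 in null hearts and 0.015, 0.026 and 0.005 in wildtype replicates 2 to 4. Its 3 wildtype values were almost equal, with an SD of 0.010, against 0.14 in null hearts. Its log2 difference was -0.22 (SE 0.12, adjusted p = 0.624 in limma). Cacnb1, the beta subunit of the same skeletal muscle channel, had -0.16 (SE 0.14), or -0.04 without null replicate 3, and Cacnb2, the main beta subunit of the heart's L-type channel, had 0.03 (SE 0.12). Cacnb2 read -0.13, -0.17, -0.056 and -0.30 in null hearts and -0.0056, -0.45, -0.14 and -0.18 in wildtype hearts, with the null values inside the wildtype range.

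Cacna1h encodes the T-type channel Cav3.2, which fetal heart muscle expresses. It read 0.003, -0.0005, 0.33 and 0.25 in null hearts and 0.24, -0.18, -0.077 and -0.029 in wildtype hearts. The groups overlapped only through wildtype replicate 1, and without that array the log2 difference was 0.24, against 0.16 (SE 0.13, adjusted p = 0.740 in limma) with all arrays. Cacna2d3, an alpha2delta subunit, had -0.02 (SE 0.16).

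**Figure D2:**
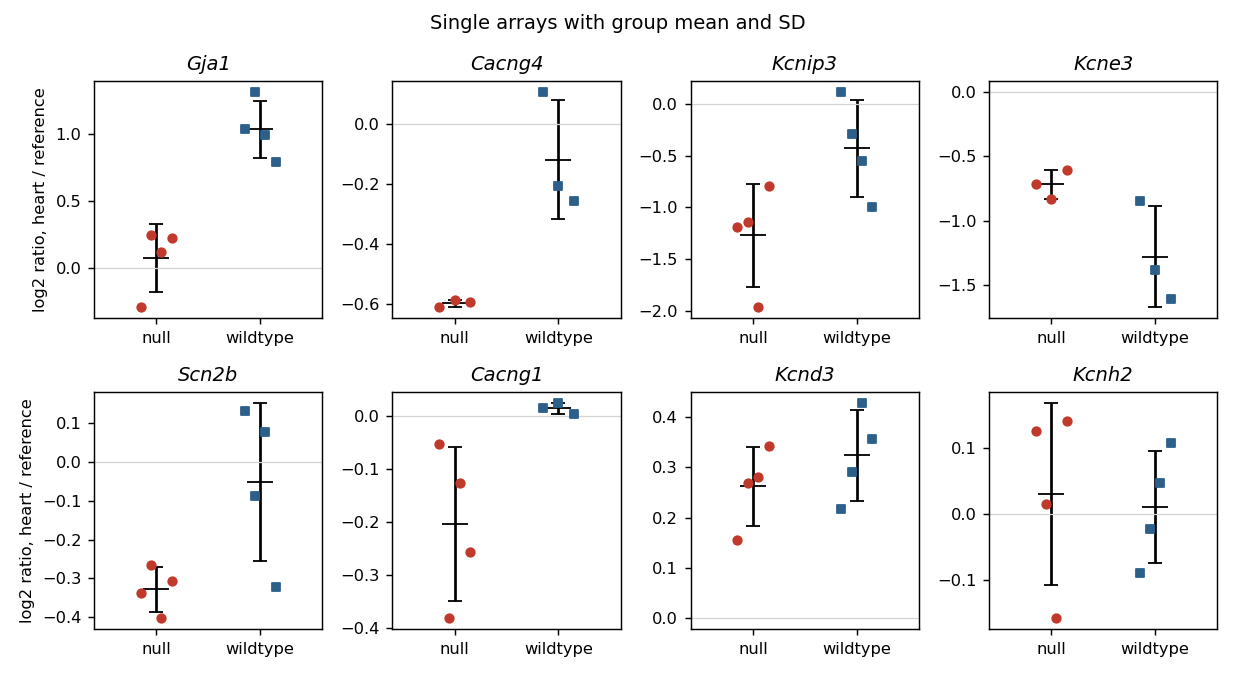
Log2 ratio, heart over adult mixture, of Gja1 and 7 channel genes on single arrays (points), with the group mean and SD (bars), null left of wildtype. Null and wildtype points do not overlap for Gja1, Cacng4, Kcne3 and Cacng1, overlap through 1 array for Kcnip3 and Scn2b, and lie among each other for Kcnd3 and Kcnh2. Each panel has its own vertical scale.

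The sodium pump was represented by its beta subunits, which escort the catalytic alpha subunit to the membrane. The array held no alpha subunit gene under a single symbol. Atp1b1, the form of most tissues, read -0.38, -0.17, -0.17 and -0.13 in null hearts and -0.50, -0.079, -0.10 and -0.08 in wildtype hearts. Replicate 1 was the lowest array in both groups. Atp1b2, first known as an adhesion molecule of glia, read -0.58, -0.47, -0.81 and -0.68 in null hearts and -0.82, -0.60, -0.76 and -0.85 in wildtype hearts. Atp1b3 read -0.62, -0.62, -0.54 and -0.53 in null hearts and -0.79, -0.60, -0.27 and -0.43 in wildtype hearts. The gene averages lay below 0, that is below the median ratio, on all arrays, though single probes of Atp1b1 read above 0 on some wildtype arrays, and the groups overlapped for each gene. Their log2 differences were -0.02 (SE 0.13), 0.12 (SE 0.11) and -0.05 (SE 0.12), with 95% intervals that together span -0.33 to 0.37.

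IP3 receptors release calcium from internal stores, and Itpr2 is the main form in heart muscle cells. Itpr2 read 0.15, 0.36, 0.18 and 0.14 in null hearts and 0.47, 0.063, 0.047 and 0.051 in wildtype hearts. Wildtype replicate 1 was the highest of all 8, and the other wildtype arrays lay below every null array. Its value of 0.47 was estimated from a fit over both probes, since only the second was read there, at 0.25. The log2 difference was 0.05 (SE 0.13, adjusted p = 0.933 in limma), and without wildtype replicate 1 it was 0.15. Its 2 probes went opposite ways, 0.33 (SE 0.14) on the first, which had no value on wildtype replicate 1, and -0.10 (SE 0.12) on the second. Itpr3, the form of epithelia, had -0.11 (SE 0.12).

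Chloride channels and transporters had 4 of 5 CLC genes and 3 of 4 CLIC genes measured. Clcn3, Clcn4, Clcn5 and Clcn7 encode proteins of endosomes and lysosomes that exchange chloride for protons. Their log2 differences were -0.05 (SE 0.11), -0.22 (SE 0.15), 0.16 (SE 0.26) and -0.12 (SE 0.12). Clcn5, best known from kidney, read 0.43, 0.35, 0.95 and 0.53 in null hearts and 1.07, -0.38, 0.36 and 0.56 in wildtype hearts. Its wildtype range enclosed its null range, and its 2 probes gave 0.62 (SE 0.35) and -0.04 (SE 0.19). The low wildtype replicate 2 came from the first probe, which read -1.003 there while the second read 0.25.

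Clic4, a chloride intracellular channel protein that is abundant in endothelium, had the highest mean ratio of the 36 genes, above 96.8% of named genes or level with them. It read 0.41, 0.83, 0.72 and 0.78 in null hearts and 0.69, 0.84, 0.32 and 0.78 in wildtype hearts, a log2 difference of 0.03 (SE 0.14). Its 3 probes gave 0.11, 0.02 and -0.01. Clic5, which anchors to the actin cortex, read -0.30, 0.27, 0.50 and 0.20 in null hearts and 1.37, -0.0048 and 0.15 in wildtype replicates 1 to 3. Wildtype replicate 1 lay far above the other arrays, and the difference was -0.34 (SE 0.31), or 0.05 with weights for each array. Clic1 had -0.06 (SE 0.16), with 0.11 and -0.24 on its 2 probes.

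Of 8 genes with Trpc, Trpm or Trpv symbols, 7 of them TRP cation channels and the other the binding protein gene Trpc4ap, 3 channels were measured, all with lower values in null hearts and none past the test. Trpm7, a magnesium-permeable channel fused to a kinase, read 0.40, 0.47, 0.75 and 0.30 in null hearts and 1.32, 0.42, 0.27 and 0.31 in wildtype hearts. Its log2 difference was -0.10 (SE 0.22), and without wildtype replicate 1 it was 0.15. Trpv2, a stretch-responsive calcium channel, read -0.50, -0.59, -0.95 and -0.42 in null hearts and -0.21, -0.45, -0.28 and -0.55 in wildtype hearts. Its difference was -0.24 (SE 0.14, adjusted p = 0.635 in limma), with -0.17 and -0.33 on its 2 probes, and -0.08 without null replicate 3, which held the lowest value. Trpc2, the pheromone-sensing channel of the mouse vomeronasal organ, had -0.22 (SE 0.24) over 3 arrays per group. The ATP-gated channel genes P2rx3, known from sensory neurons, and P2rx4 had 0.06 (SE 0.11) and -0.02 (SE 0.23).

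Of the 36 genes 10 had more than 1 measured probe, and for 5 of them (Atp1b1, Clcn5, Clic1, Clic4 and Itpr2) the probes gave differences of opposite sign. For Trpv2, Clcn7, Kcnk1, Kcnn4 and Trpm7 the probes gave differences of 1 sign. The other 26 genes rest on 1 probe each.

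**Figure D3:**
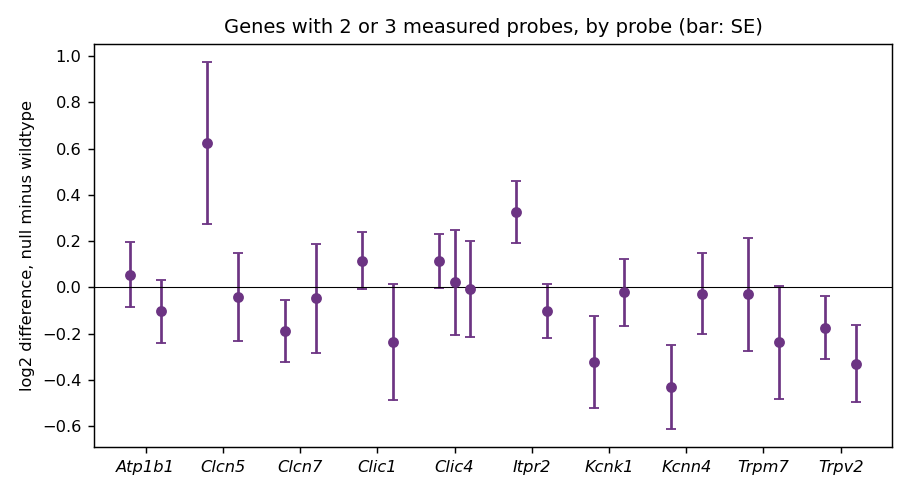
Log2 difference, null minus wildtype, for each probe of the 10 genes with 2 or 3 measured probes (points), with its standard error (bars). The probes of Itpr2, at 0.33 and -0.10, and of Clcn5, at 0.62 and -0.04, stand on both sides of 0.

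Against the adult mixture, 12 of the 36 genes had a mean ratio above 0 and 24 below, where 5930 of 11804 features were above. The median of their ratios was -0.22 for null pools and -0.16 for wildtype pools, against -0.02 and 0.03 over all features. After Clic4, the highest ratios belonged to Trpm7 (0.48 ± 0.19 in null and 0.58 ± 0.50 in wildtype hearts), Clcn5 (0.57 ± 0.27 in null and 0.40 ± 0.60 in wildtype hearts), Clic5 and Kcnd3. Itpr2, Cacna1h, Kcnn4, Clic1 and Kcnh2 followed, with mean ratios of 0.18 or less over both genotypes, and Kcnh2 and its neighbours in this order differed by less than their SD. The lowest were Kcne3, Kcnip3, Atp1b2 (-0.64 ± 0.14 in null and -0.76 ± 0.11 in wildtype hearts), Atp1b3, Trpv2, Itpr3, Kcnj16, Kcnab3, Cacng4 and Cacna2d3. Errors are SD over the arrays with a value.

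**Figure D4:**
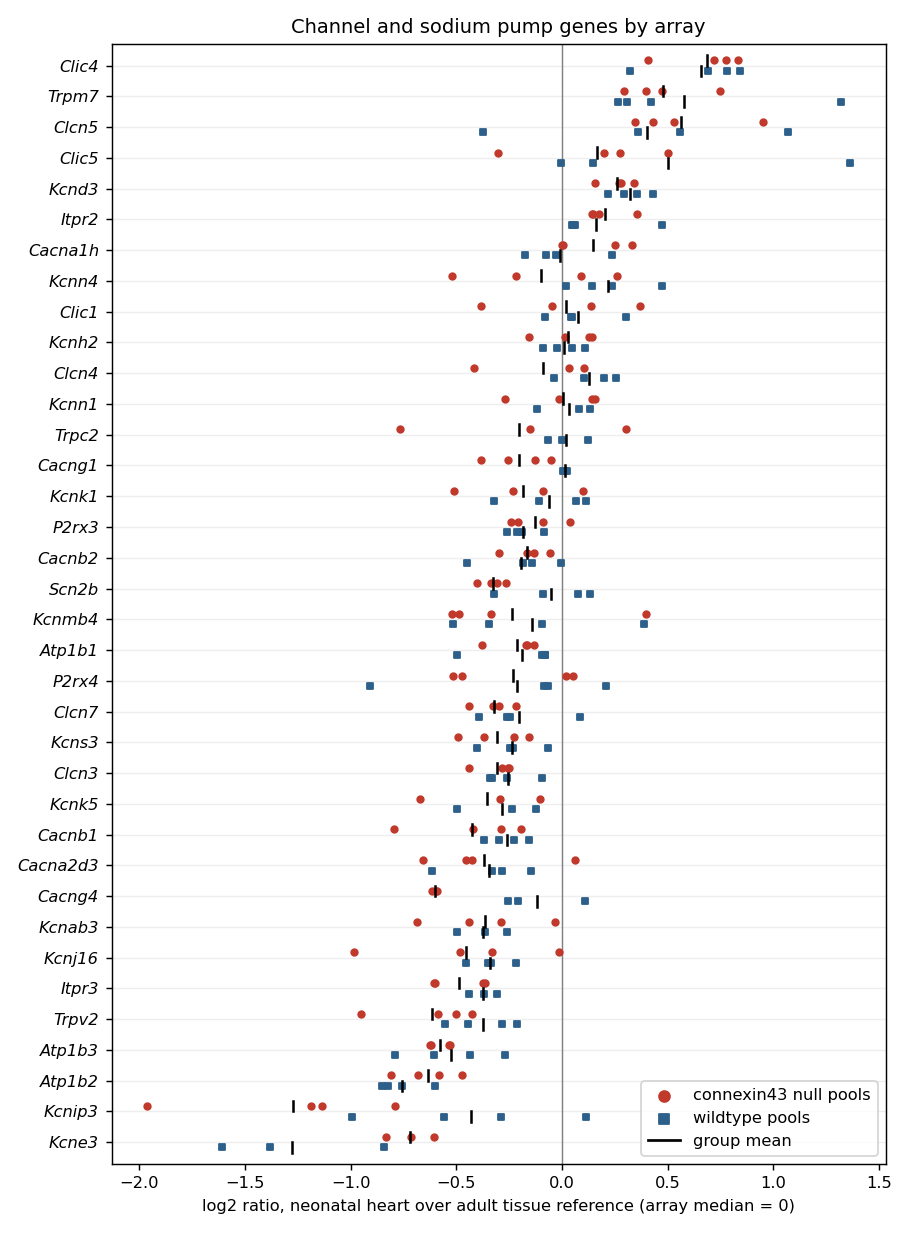
Log2 ratio of neonatal heart over the adult mixture for the 36 genes on single arrays, null pools as circles above wildtype pools as squares in each row, with group means as black ticks, ordered by mean ratio. Most genes lie below 0, with Clic4 highest and Kcne3 lowest, and the 2 groups of points overlap in 33 of 36 rows.

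The difference between genotypes moved with the ratio to the mixture over the whole array. When the features were ordered by ratio and split into 4 bins of 2951, the median log2 difference was -0.11 in the lowest bin, with 26.0% higher in null hearts, and 0.02 in the highest bin, with 55.4% higher. The lowest bin held 17 of the 36 genes, 3 with higher and 14 with lower values and a median of -0.07. The next bins held 7, 7 and 5 genes, of which 2, 3 and 2 had higher values. Kcnip3 stayed at -0.63 and Cacng4 at -0.37 once the trend was removed, and Kcne3 was then at 0.79.

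**Figure D5:**
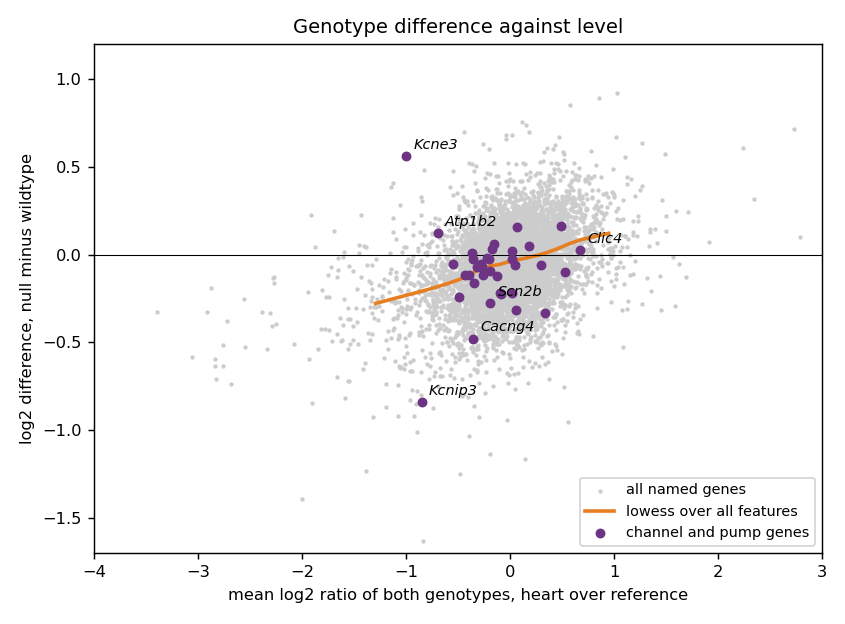
Log2 difference, null minus wildtype, against the mean log2 ratio of both genotypes for named genes (grey) and the 36 channel and pump genes (purple), with a lowess line over all features (orange). The line climbs with the ratio, most channel genes sit in its left part, and Kcne3 and Kcnip3 lie farthest from it among them.

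Kcnip3 and Cacng4 are best known from nerve tissue, and the mixture also contains brain and lung. Measured markers of neurons, glia and lung had lower values in null hearts, as did those listed for other adult tissues. All 5 measured neuron markers of 15 listed had lower values, with a median difference of -0.25, and their mean ratio ran from -0.97 to -0.52 in null and from -0.81 to -0.16 in wildtype hearts. For glia 2 of 7 markers were measured, both lower, with mean ratios of -1.54 to -0.93 in null and -1.33 to -0.52 in wildtype hearts. The 3 measured lung markers of 5 listed were lower too, at -3.18 to -2.82 in null and -2.48 to -1.85 in wildtype hearts, without overlap. All 9 measured markers of 21 listed for other adult tissues, among them Mbp, Scgb1a1, Sftpc, Alb, Tff1 and Tnp1, were lower as well. This list shares Mbp with the glia list and Scgb1a1 and Sftpc with the lung list, so these lists are not independent. The median difference of these 9 markers was -0.33, and their mean ratio was -2.71 to -2.30 in null and -2.29 to -1.79 in wildtype hearts, also without overlap. Features of low ratio ran lower in general. In the lowest bin, up to -0.20, 26.0% of all features were higher in null hearts, with a median difference of -0.11. At a ratio of -1.29 the lowess line stood at -0.28. Apart from Uchl1, the measured neuron, glia, lung and other-tissue markers lay in this bin. The neuron markers Snap25, Syt1, Th and Dbh were not among the measured genes. Heart muscle markers, 4 of 12 measured, had mean ratios of 0.78 to 1.199 in null and 0.80 to 1.15 in wildtype hearts. Mean ratios of the smooth muscle, skeletal muscle, endothelial, fibroblast, erythroid, macrophage and atrial markers overlapped between genotypes, as did those of neurons and glia. Values were higher in null hearts for 6 of 6 erythroid markers (median difference 0.21), 5 of 5 fibroblast markers (0.12), 4 of 5 endothelial markers (0.18) and both skeletal muscle markers (0.26), and for 0 of 2 smooth muscle, 0 of 2 macrophage and 1 of 4 atrial markers. The mean ratio of the skeletal muscle markers, beside Cacng1 and Cacnb1, ran from 0.67 to 1.00 in null and from 0.22 to 1.04 in wildtype hearts. The part of other cells in the values of these channel genes was not tested.

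By role, 5 of 7 listed channel genes of the working heart's action potential that the array held were measured, 3 with higher and 2 with lower values and a median difference of 0.02. They were Scn2b, Cacnb2, Kcnd3, Kcnh2 and Kcne3. Of 3 listed pacemaker channel genes that the array held only Cacna1h was measured, and no Hcn gene was on the array under a single symbol. Channels known from neurons (Kcnmb4 and Kcnn1) had a median of -0.06 in a list that does not hold Kcnip3, Cacng4 or P2rx3. Relative to wildtype, channels of kidney, stomach and other epithelia had 1 higher and 5 lower values and a median of -0.12, and those of smooth or skeletal muscle (Kcne3, Cacng1 and Cacnb1) 1 higher and 2 lower values and a median of -0.16. No gene of these lists passed the test.

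Partners and regulators of channels and pump had 20 of 30 members measured, 10 with higher and 10 with lower values and a median of 0.01, and 0 passed. Groups without overlap were found for 4 of the 20, against 7.54% of all features, and an unadjusted p under 0.05 for 5, against 8.23%. The 5 were Gja1 and the genes Stim1, Orai2, Nedd4 and Camk2d. Both counts include Gja1, the connexin43 gene itself, whose difference follows from the genotype. The list was also chosen with earlier results of these data known, so no excess over all features is read from it. Stim1, the calcium sensor of the sarcoplasmic reticulum that opens store-operated channels, had -0.52 ± 0.14 in null (n = 4) and -0.17 ± 0.12 in wildtype hearts (SD, n = 3), a log2 difference of -0.35 (SE 0.13, adjusted p = 0.558 in limma). Orai2, a pore of these channels, had -0.43 (SE 0.17, adjusted p = 0.568 in limma), and the groups did not overlap for either gene. The ubiquitin ligase gene Nedd4 had 0.37 (SE 0.14, adjusted p = 0.564 in limma), also without overlap. Camk2d, a calmodulin-dependent kinase subunit named after its value was seen, had 0.44 (SE 0.19), with overlap. Slc8a1, the sodium-calcium exchanger, which uses the sodium gradient built by the pump to move calcium out of the cell, averaged 1.95 ± 0.11 in null pools and 1.88 ± 0.21 in wildtype pools (SD, n = 4 each).

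The other 25 genes on the array were not measured on enough arrays, and their best probe had a value on 0 to 6 arrays. Just inside the limit, with 3 arrays per genotype, were Cacng4, Kcne3, Kcnk5 and Trpc2. Just outside it were Cacna2d1, the alpha2delta subunit of the heart's L-type channel, with -0.54, 0.40, 0.87 and 0.02 in null hearts and 0.40 and 0.68 in wildtype replicates 2 and 4, Kcna3 with 3 null and 2 wildtype values, and Kcnk6 with 2 null and 3 wildtype values. Kcnd2, which encodes Kv4.2, and Trpm4 had a value on 1 array each, and Kcnj15, Kcnk7 and Trpv4 on none. Cacna1a, Cacna1d, Cacna1g, Clcn2, Clic3, Kcna7, Kcnc1, Kcnc4, Kcnh1, Kcnh3, Kcnmb1, Kcnq5, P2rx1, Scn3b, Trpc4ap, Trpm2 and Trpm3 make up the rest.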

How the data were processed

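The authors deposited 1 log ratio of the dyes for each spot and array. The deposited values were read as log2: of 31304432 differences between spots in blocks of 598 rows, 8347 lay within 1.5e-09 of the base 2 log of some quotient of integers no larger than 120, while base e gave 269 such matches and base 10 gave 863. How background, spot filtering and scaling were handled is not given in the sources used here. Probes were named from the platform annotation, which can be old; the gene numbers of all 90 member probes were found in the GRCm38.p6 table, and 0 symbols changed. Arrays were centred on their medians, and probes of 1 gene were combined in an additive model of probe and array. Where a probe had no value on an array, the gene's value there is an estimate from that model. Null minus wildtype was fitted over all 11804 features with lmFit and eBayes (limma 3.58.1, R 4.3.3) and Benjamini-Hochberg adjustment, with no covariate. The scripts were tested on simulated data. Tables and figures used Python 3.11.15 and matplotlib 3.10.9. The number of arrays limits the precision. The replicates are pools, so p-values reflect differences among pools of hearts. Genes, gene lists and markers were chosen with earlier results of these data known. Genes were named by rule: the 12 smallest p-values in each direction, the 10 highest and 10 lowest ratios, list members and up to 4 partners by p-value. Slc8a1, Camk2d and the remaining members were named besides. Alternatives were other centring, scaling, missing-value limits, probe choices and tests, each array left out, and the replicate number as a block.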

Additional observations from a re-analysis of the deposited data

Results flagged for a closer look

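In 58 groups of 4 arrays over the 36 genes, 5 held an array far from the other 3, where chance alone puts about 1 in 20 groups past this limit (Dixon's). On wildtype replicate 1 Atp1b1 read -0.50, while the remaining wildtype values were -0.10 to -0.08. On the same array Itpr2 stood at 0.47, against 0.05 to 0.06, and Trpm7 read 1.32, against 0.27 to 0.42. The Itpr2 value there is a fitted one, since only its second probe was read on that array, at 0.25. On null replicate 1 Atp1b1 read -0.38, against -0.17 to -0.13 on the other null arrays. On null replicate 2 Itpr2 read 0.36, against 0.14 to 0.18. Wildtype replicate 1 was also the array with the fewest values.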

How the results depend on the processing

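No channel or pump gene passed an adjusted p of 0.05 under any alternative that gave a test, and the lowest adjusted p in limma, 0.218, was that of Kcne3 with array weights. The number of features called was 0 throughout. Features with an unadjusted p under 0.05 numbered from 614 of 8078, with values on all 8 arrays, to 1392 of 11804, without centring. The main fit had 972 of 11804. Kcnip3, Cacng4, Cacng1, Kcne3, Scn2b, Kcnn4, Trpv2, Clcn4, Cacnb1, Trpc2 and Kcnd3 kept their direction in every alternative run on them. Arrays were left out only where at least 3 values per genotype remained, or 2 for Cacng4, Kcne3 and Cacng1. Trpc2 was thus never refitted without an array that held its value, so its direction was not put to this check. Clcn4 was not refitted without a null array that held its value, and Kcnn4 not without null replicate 1 or 4. Gja1 ranged from -1.11 to -0.83. The median difference of the channel and pump genes, -0.07, was -0.22 without centring (all features -0.18), -0.10 to -0.03 with 1 array left out, and 0.005 with the trend removed, where 17 genes had lower values against 26. The number of genes with an unadjusted p under 0.05, 4, was 2 among the 24 genes with a probe read on all 8 arrays and 1 to 3 with 1 array left out, with 27 to 33 genes tested: 2 without wildtype replicate 1, 2 or null replicate 1, 1 without wildtype replicate 3 or null replicate 2 or 4, and 3 without wildtype replicate 4 or null replicate 3. The median ratio to the mixture, -0.19, was -0.35 without centring and -0.35 after quantile normalization, neither of which sets array medians to 0. Without centring the list medians were -0.14 for action potential channels, -0.18 for pump subunits, -0.23 for IP3 receptors and -0.10 for partners. With 1 array left out they ranged from -0.13 to 0.15 for IP3 receptors and from -0.24 to 0.18 for channels of smooth or skeletal muscle. The high ends, without wildtype replicate 1 and without wildtype replicate 4, rest on 1 and 2 genes, and the low ends on all 2 and 3 genes of the lists.

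Some differences changed sign, mostly small ones, but also those of Clic5 (-0.34), Clcn5 (0.16) and Cacna1h (0.16). Without centring this gave -0.037 for Atp1b2, -0.0013 for Cacna1h, -0.13 for Cacnb2 and Clic4, -0.11 for Itpr2, -0.051 for Kcnab3, -0.14 for Kcnh2 and -0.10 for P2rx3. Array weights gave 0.0056 for Clcn7, 0.047 for Clic5, -0.10 for Kcnab3, 0.084 for Kcnn1, 0.041 for P2rx4 and 0.025 for Trpm7. The probe with the fewest missing values gave 0.055 for Atp1b1, -0.043 for Clcn5, 0.11 for Clic1 and -0.10 for Itpr2, and values on all 8 arrays gave -0.043 for Clcn5 and -0.10 for Itpr2. At least 2 arrays per genotype gave -0.011 for Clic4, -0.10 for Itpr2 and -0.071 for Kcnh2, and equal spread gave -0.0061 for Clic4 and 0.019 for P2rx4. Quantile normalization gave 0.0088 for P2rx4. Added after seeing the data, centring within blocks gave -0.063 for Kcnh2, and removal of the trend gave 0.043 for Atp1b1, 0.10 for Atp1b3 and for the pump list, 0.079 for Cacna2d3, 0.030 for Clcn3, -0.058 for Clic4, 0.012 for Itpr3, 0.0022 for Kcnj16, 0.022 for Kcnk5, 0.0087 for Kcnn1, 0.0078 for Kcns3 and 0.052 for P2rx4. With 1 array left out, ranges that cross 0 were -0.13 to 0.032 for Atp1b1, -0.14 to 0.033 for Atp1b3, -0.17 to 0.071 for Cacna2d3, -0.053 to 0.095 for Cacnb2, -0.080 to 0.0027 for Clcn3, -0.13 to 0.38 for Clcn5, -0.18 to 0.073 for Clic1, -0.024 to 0.12 for Clic4, -0.15 to 0.15 for Itpr2, -0.10 to 0.12 for Kcnab3, -0.016 to 0.083 for Kcnh2, -0.26 to 0.064 for Kcnj16, -0.22 to 0.062 for Kcnk1, -0.31 to 0.081 for Kcnmb4, -0.079 to 0.064 for Kcnn1, -0.25 to 0.12 for P2rx4 and -0.24 to 0.15 for Trpm7. The cause was not tested.

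Pools of both genotypes are numbered 1 to 4 in the labels, which tie no number to a litter or a day. Same-numbered arrays correlated with r of -0.25 to -0.01 in their deviations from the group means, and 0 of 4 correlated best with its own number. No pairing by number was seen in the values, but whether same-numbered pools share a litter or a day cannot be told from this. With the replicate block the median difference of the channel and pump genes was -0.07, 0 features were called, 728 features had an unadjusted p under 0.05, and Kcnab3 changed sign to -0.10.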
